A study of Mus musculus with 12 samples.

Results

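Cd44+ Cd4+ T cells are the annotated T cells to which the authors gave the subtype name Cd44+ Cd4+ T in the 6 CD45 libraries of the study, and all cells with that class and subtype were taken. They numbered 1900 of 9884 annotated T cells and of 54955 cells in the CD45 libraries, within 115612 cells of all 12 libraries. After 6 of them were called doublets and left out, 1894 remained, with 342 from the Clone E tumour, 429 from EM1, 310 from EM2, 423 from EM3, 279 from M and 111 from the parental tumour. The study grew tumours of 4T1, a mouse mammary carcinoma line used as a model of triple-negative breast cancer, from 5 clones that each descend from a single cell and from the uncloned parental line. The clones stand for epithelial, intermediate and mesenchymal states of the line, although the labels give each clone only by its name. The hosts were female BALB/c mice 9 to 11 weeks old, whose immune system is intact, injected in the mammary fat pad, and all groups share this host, site and digestion with collagenase A and hyaluronidase. Per the labels 1 tumour stands for each of the 6 groups, and each tumour gave a Total library and a CD45 library, the latter enriched with magnetic beads against the leukocyte antigen CD45. The labels name no treatment, and the groups differ by the cells that were implanted.

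CD4 T cells read peptides on MHC class II and act on other cells through surface ligands and secreted cytokines. Antigen-experienced CD4 T cells carry much CD44, a hyaluronan receptor, and CD40 ligand on such cells licenses dendritic cells, macrophages and B cells. Helper cells of type 2 are built around the transcription factor GATA3, carry the interleukin-33 receptor ST2 (Il1rl1) and make interleukins 4, 5 and 13, while type 1 helper cells make interferon gamma. Regulatory CD4 T cells carry Foxp3 and restrain responses. In breast tumours all of these kinds of CD4 T cell are found.

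Of the cytokine genes described below, Il4, Il13, Il5, Csf2 and Il3 stand in 1 stretch of 664 kb of mouse chromosome 11, chr11:53602982-54267277 in the build GRCm38. The promoters of Il13 and Il5 are shown because these genes carry most of the type 2 cytokine RNA described below. The sequences are those of RefSeq on GRCm38.p6, cover the 250 bases before the annotated start and run 5′ to 3′ on the strand of the gene, which is the minus strand for Il13 (chr11:53634703-53634952) and the plus strand for Il5 (chr11:53720544-53720793). Capitals mark a match to a GATA-type motif.
Il13: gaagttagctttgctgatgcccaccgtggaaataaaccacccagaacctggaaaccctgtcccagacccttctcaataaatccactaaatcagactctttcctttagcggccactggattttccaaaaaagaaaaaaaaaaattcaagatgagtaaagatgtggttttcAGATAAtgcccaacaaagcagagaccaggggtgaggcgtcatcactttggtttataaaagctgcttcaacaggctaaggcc
Il5: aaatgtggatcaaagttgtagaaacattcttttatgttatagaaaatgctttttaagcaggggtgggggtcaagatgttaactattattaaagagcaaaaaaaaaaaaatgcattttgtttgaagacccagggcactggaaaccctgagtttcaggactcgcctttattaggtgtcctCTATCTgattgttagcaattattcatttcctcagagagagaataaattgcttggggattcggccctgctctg
The letters searched were AGATAA and its variant AGATAG, and likewise TGATAA with its variant TGATAG, on both strands, so that CTATCT in the Il5 promoter is AGATAG read on the other strand. Each of the promoters of Il4, Csf2 and Il3 held 1 match as well, with Il4 counted at both of its promoters. Of 32851 RefSeq promoters of 300 bases, 9778 (29.8%) held such letters, and a match is a description of the letters and not a site in use.

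The CD45 libraries gave 130050 to 675540 UMIs (unique molecular identifiers, by which copies of 1 RNA molecule are counted once) over the members of a tumour, with the fewest in the parental tumour, and a median of 930 to 1475 UMIs per cell. Levels are CPM, which put each tumour's sum of member UMIs on a common total, with exact Poisson intervals at a confidence level of 95%. With 1 tumour per group no test between tumours was possible, and the intervals cover counting error only. A gene is called higher or lower between 2 tumours where the log2 ratio of CPM + 10 passes 1 in size and the intervals do not overlap, among genes with at least 50 CPM in either tumour. The labels name no wells or loading batches, but droplet barcodes were shared unevenly: the E and EM3 CD45 libraries shared 1640 (15.1% of the smaller), those of EM1 and EM2 shared 1186 (13.0%), and every other pair of CD45 libraries shared 60 to 161 (0.884 to 1.76%). No full cell barcode was shared within either of the first 2 pairs, and 84 to 161 were shared between CD45 libraries that carry the same sample barcode. The CD45 libraries of Clone M and the parental tumour shared droplets with no other CD45 library to that extent, so that for them a loading batch, if there was one, and the clone cannot be told apart. Markers of other cells were present in the sums: 12 macrophage and monocyte genes together reached 2330 CPM in M and 3460 to 6690 CPM in the other tumours, against 50400 to 58000 CPM over cells that are not T cells. Cd8a and Cd8b1 together reached 49.2 to 132 CPM, and 8 genes of natural killer and unconventional T cells together reached 391 to 650 CPM, against 4300 to 4990 CPM over cells that are not T cells, with Ncr1 and Klra8 at 0 in all 6 tumours. Values of the 6 tumours are given below in the order Clone E, EM1, EM2, EM3, M and parental.

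The 4 markers of the subtype were present in all 6 tumours, which the annotation, drawn from the same values, fixes in part. Cd4, the co-receptor for MHC class II, stood at 1340, 1370, 1310, 1330, 1220 and 1030 CPM, lowest in the parental tumour, with a mean over tumours of 67.6 CPM in Lef1+ Cd8+ T cells. Cd44 stood at 696, 546, 589, 687, 780 and 646 CPM. Its mean over tumours was 203 CPM in Cd44- Cd4+ T cells and 757 CPM in Foxp3+ Cd4+ T cells, so Cd44 parts these cells from the former and not from the latter. Icos, a costimulatory receptor of activated helper cells, stood at 2720, 2410, 2590, 1840, 1650 and 2190 CPM, with M and EM3 lowest. Cd40lg, the ligand of CD40, stood at 246, 183, 97.7, 184, 146 and 108 CPM, highest in E, where the interval of 207 to 290 lay above those of EM2 (66.4 to 139), M (112 to 187) and the parental tumour (58.9 to 181).

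Per cell, each marker was seen in only a part of the members, and the part of depth in this was not tested. After each cell was thinned to 1000 UMIs, which left 291, 203, 134, 351, 213 and 63 cells, Cd4 was seen in 61.2, 65.5, 64.9, 59.8, 53.1 and 54.0% of the members. In granulocytes of the same libraries, which do not carry this co-receptor, the share was 0 to 0.725%. Cd40lg was seen in 15.5, 14.8, 5.97, 15.1, 6.57 and 6.35% of the members and in 0 to 0.239% of granulocytes. Cd44 marks no lineage here, since it was seen in 40.4 to 47.6% of the members and in 83.7 to 91.7% of granulocytes.

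The members made up 19.0% (17.2 to 20.9), 14.2%, 17%, 24.6% (22.6 to 26.7), 40.8% (37.1 to 44.6) and 13.9% (11.6 to 16.5) of the annotated T cells. Clone M therefore stood apart at the top of this order and EM3 next, both clear of the other tumours' intervals, with exact Clopper-Pearson intervals throughout. Of all cells in the CD45 libraries they made up 3.22, 4.62, 3.47, 3.94, 3.72 and 1.66%, an order in which only the parental tumour stands low. Clone M minus E came to 21.8 percentage points (17.6 to 25.9) over T cells and to 0.504 points (-0.0433 to 1.06) over all CD45 cells. Over cells other than granulocytes it came to 3.31 points (2.35 to 4.3), with M at 7.55% and E at 4.25%. The Clone M library held 684 annotated T cells and the E library 1797, while the parental library, with the lowest share, held 796. Among the 3 CD4 subtypes together the members made up 36.3, 20.7, 22.5, 50, 54.1 and 15.0%. Cd44- Cd4+ T cells numbered 405, 1435, 859, 61, 41 and 534, few in EM3 and M. In all 6 tumours Cd4 was lower and Cd8b1 higher in them than in the members, past a log2 ratio of 1. In E a Cd4 UMI was seen in 25.5% of them after thinning to 1000 UMIs. What part of this subtype are CD8 T cells was not tested, and the shares among the CD4 subtypes carry this limit. A gate on UMIs was also set in place of the annotation (annotated T cells with a Cd4 and a Cd44 UMI and without Foxp3, Cd8a or Cd8b1 UMIs). With it the difference over T cells was 5.64 points. That over CD45 cells was -0.287 points (-0.659 to 0.0953), a turned sign with an interval that overlaps the one for annotated members. Magnetic enrichment and digestion can set such shares, and their part was not tested.

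**Figure D1:**
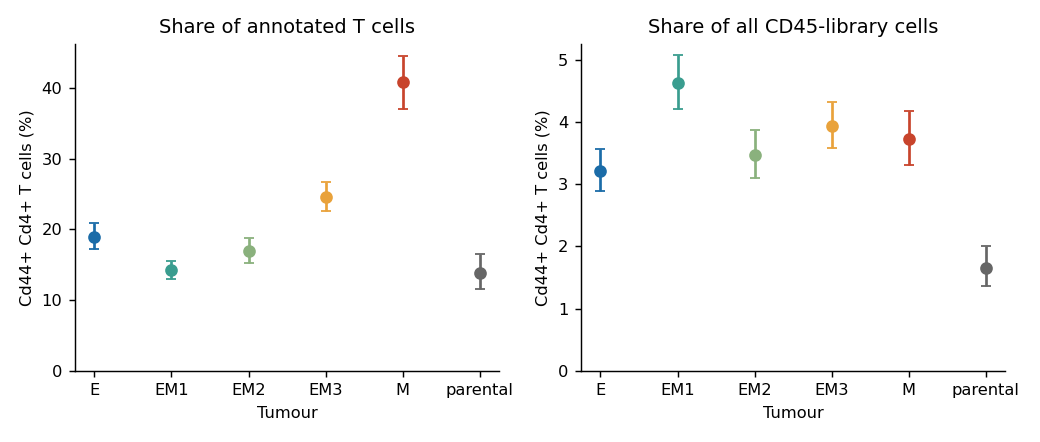
Share of Cd44+ Cd4+ T cells (y axis, percent) in the annotated T cells (left) and in all cells of the CD45 library (right) for the 6 tumours (x axis). Points are shares and bars exact Clopper-Pearson intervals at 95%; Clone M is highest on the left at 40.8%, and the parental tumour is lowest on the right at 1.66%.

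Helper ligands of the tumour necrosis factor superfamily were present in these cells in every tumour. Tnfsf8, the ligand of CD30, stood at 1060, 1050, 832, 795, 1080 and 1320 CPM. Its mean over the tumours was 1020 ± 192 CPM (SD, n = 6 tumours) in the members, 86.3 CPM in Cd44- Cd4+, 85.7 CPM in Foxp3+ Cd4+, 68.4 CPM in Gzmb+ Cd8+ and 41.1 CPM in Lef1+ Cd8+ T cells. Tnfsf11, known as RANK ligand, stood at 350, 248, 385, 363, 389 and 423 CPM. Its mean was 359 ± 60.1 CPM in the members and at most 67.3 CPM in each of the other subtypes just named. That limit does not cover further annotated T subtypes, whose levels were not compared. Of these, Trdc+ DN T cells held 64 of the 295 Tnfsf11 UMIs of the M library (21.7%). Mki67+ Cd8/Cd4 T cells held 62 of the 393 in E (15.8%). Both ligands had narrower ranges over the tumours than Il5 and Il13, described next. The members, 1.66 to 4.62% of the cells of a CD45 library, held 63.0% of all Tnfsf8 UMIs (49.4 to 80.7% by tumour), 60.2% of Cd40lg UMIs (36.8 to 77.8%) and 52.5% of Tnfsf11 UMIs (42.9 to 61.1%). In the parental library Cd44- Cd4+ T cells held more of the Cd40lg UMIs, at 42.1%.

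Gata3 and Il1rl1 were detected in the members of all 6 tumours, while the type 2 cytokines stood at very unequal levels. Gata3 stood at 701, 838, 605, 1070, 1180 and 784 CPM. Il1rl1, the receptor of interleukin-33, stood at 399, 515, 271, 728, 745 and 492 CPM. EM3 and M were highest for both genes, and EM2 was lowest for both. Il5, the growth factor of eosinophils, stood at 288, 279, 205, 734, 928 and 108 CPM, with the intervals of EM3 (671 to 802) and M (840 to 1020) above those of the other tumours. Il13, which acts on epithelium and macrophages, stood at 967, 198, 9.46, 459, 1070 and 38.4 CPM. Its order differs from that of Il5, since E was high for Il13 and not for Il5. Il4, the cytokine that names the type, was sparse at 43.9, 23.1, 0, 16.3, 97.2 and 15.4 CPM, and the 0 in EM2 allows up to 9.46 CPM.

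The chemokine receptors Ccr8 and Ccr4 had narrower ranges over the tumours than Il5 and Il13. Ccr8, a receptor of type 2 and regulatory T cells, stood at 357, 227, 385, 426, 475 and 231 CPM. Ccr4, the receptor of Ccl17 and Ccl22, stood at 255, 219, 123, 155, 132 and 161 CPM, highest in E, where Ccr8 was not. Ccl1, the ligand of Ccr8, stood at 480, 168, 53.6, 345, 870 and 154 CPM, with 175 of its 376 UMIs in M and 90 of 273 in E in 1 cell each. The members held 69.3% of the Ccl1 UMIs in the CD45 libraries as a whole. In EM1 they held 30.2% of them and Gzmb+ Cd8+ T cells 42.3%, and in the parental library 20 of 50, where cells annotated as T and myeloid hybrids held 52%. Penk, which encodes the precursor of enkephalins, stood at 2260, 530, 1510, 3440, 1050 and 377 CPM. Penk was in 2 cells of the parental tumour and in 23 to 56 cells of the others, so its level rests on few cells. Areg, a growth factor of the epidermal growth factor family, stood at 193, 107, 18.9, 277, 81.0 and 69.2 CPM, with EM3 and E highest. In E 65 of the 110 Areg UMIs lay in 1 cell, and without the highest cells E stood at 79.1 CPM, EM1 at 65.1 CPM and EM3 at 228 CPM.

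**Figure D2:**
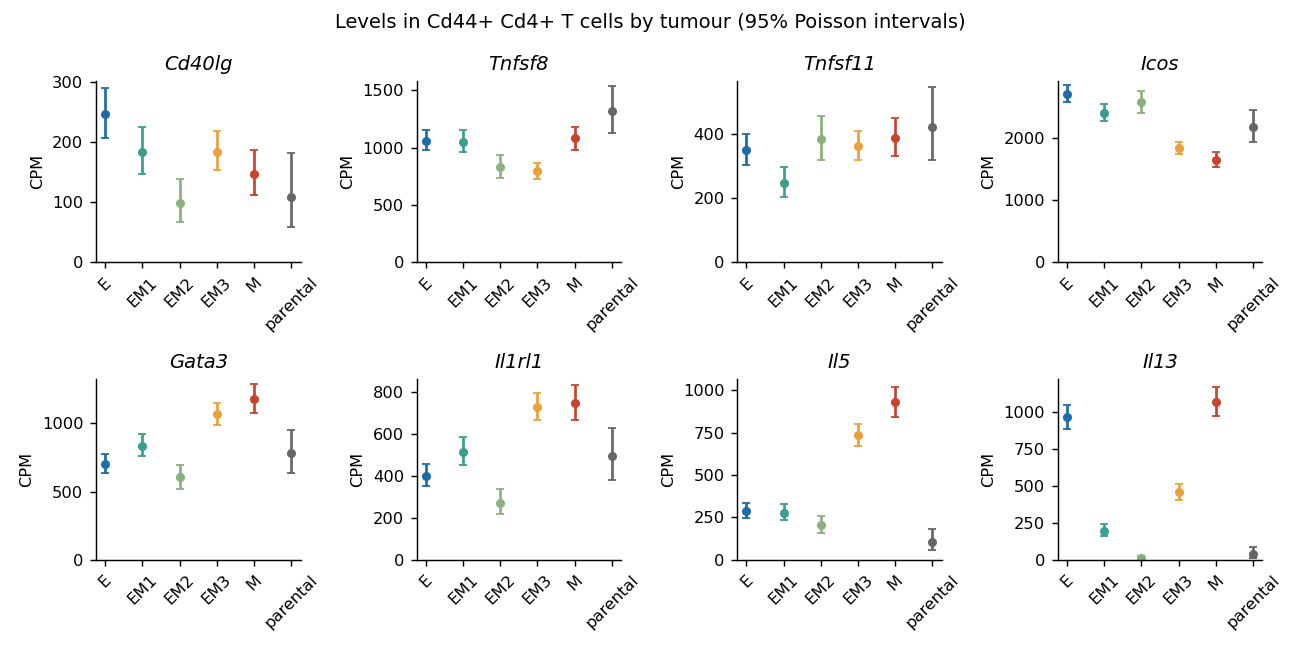
Levels of 8 helper genes (y axes, CPM, each from 0) in the Cd44+ Cd4+ T cells of the 6 tumours (x axes). Points are summed levels and bars exact Poisson intervals at 95%; Tnfsf8 ranges from 795 to 1320 CPM and Tnfsf11 from 248 to 423 CPM, while Il5 ranges from 108 to 928 CPM and Il13 from 9.46 to 1070 CPM.

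A UMI of Il4, Il5 or Il13 was found in 38 (11.1%), 33 (7.69%), 8 (2.58%), 58 (13.7%), 41 (14.7%) and 9 (8.11%) of the members, or 187 of 1894 (9.87%, 8.57 to 11.3). The share with such a UMI was 0 to 0.699% in granulocytes, at a median depth of 690 to 1223 UMIs by tumour, and 0.0871 to 0.757% in macrophages, at 5120 to 7663 UMIs. In the members it was above both in every tumour, and the exact interval of the members did not overlap theirs. Of the 187 cells 121 held at least 2 such UMIs, against 1 of 13448 granulocytes and 5 of 23937 macrophages. Of the 187 cells, 106 held Il5, 100 held Il13, 47 held Il4 and 45 held both Il5 and Il13. Of them 94.1% had a UMI of a CD3 or T-cell receptor gene, against 96.5% of the other members, and 59.9% had a Cd4 UMI, against 59.7%. The levels of several T-cell genes were lower in them than in the other members, with Cd3e at 856 against 1170 CPM, Cd3d at 402 against 562 CPM, Trac at 1160 against 1520 CPM and Trbc2 at 711 against 1070 CPM. Cd3d and Trbc2 were higher in 0 of 6 tumours, while Cd4 stood at 1350 against 1300 CPM. Of genes of basophils and mast cells, Mcpt8 and Cpa3 were at 0 in them and Fcer1a had 1 UMI. Kit, a receptor of mast cells and some innate lymphoid cells, stood at 247 against 82.8 CPM (higher in 6 of 6 tumours), and Klrg1, which type 2 innate lymphoid cells also carry, at 79.3 against 8.46 CPM (5 of 6). The part of such cells in these values was not tested. These cells were deeper than the others in each tumour, with a median of 1995 against 1440 UMIs in E, and a deeper cell is more likely to show a sparse UMI.

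The members with type 2 cytokine UMIs differed from the others in genes that did not define them. Gata3 stood at 2410 CPM in them and at 655 CPM in the others, higher in 6 of 6 tumours. Il1rl1 stood at 1620 against 385 CPM and Il2ra, the high-affinity chain of the interleukin-2 receptor, at 2110 against 320 CPM, both higher in 6 of 6 tumours. Il17rb, a part of the interleukin-25 receptor, stood at 343 against 20 CPM (5 of 6 tumours). Receptor genes for interleukin-33 and interleukin-25 were thus both higher in these cells. Areg stood at 680 against 70.3 CPM, Cd40lg at 428 against 137 CPM, Ccr8 at 734 against 310 CPM and Tnfrsf9 at 2800 against 1370 CPM, each in 6 of 6 tumours. In EM2 and the parental tumour these directions rest on 8 and 9 cells with such UMIs and so on few counts. Areg stood at 91.7 against 16.3 CPM in EM2, and Ccr8 at 259 against 227 CPM in the parental tumour. Pdcd1, the receptor PD-1, stood at 1700 against 1150 CPM (6 of 6), and Calca, which encodes calcitonin gene-related peptide, at 218 against 27.6 CPM (5 of 6). Foxp3 stood at 25.5 against 182 CPM. Of the 52 members with a UMI of Ifng, the type 1 cytokine, 11 also had Il5 or Il13. Of all 1894 members 106 held Il5, 100 held Il13 and 45 held both. The part of depth in this overlap was not tested. Ifng stood at 578 CPM in the members with type 2 cytokine UMIs and at 61.9 CPM in the others, higher in 4 of 6 tumours. In EM1 it stood at 2910 against 87.0 CPM, and in E at 111 against 154 CPM. The 578 CPM rested largely on single cells, since 145 of the 185 Ifng UMIs of EM1 and 37 of the 41 of M lay in 1 cell each.

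Single cells carried much of several cytokines, so their summed levels are those of a few cells. In M, 330 of the 462 Il13 UMIs lay in 1 cell, and without it the level was 306 in place of 1070 CPM. In E, 303 of the 550 Il13 UMIs lay in 1 cell, and without it the level was 434 in place of 967 CPM. Il5 without the highest cell stood at 227, 227, 53.6, 634, 732 and 53.8 CPM. In EM2 48 of its 65 UMIs lay in 1 cell, while EM3 and M stayed highest. Il3, a growth factor of basophils and mast cells, was found in 1 cell of M (165 UMIs) and 1 cell of E (24 UMIs) and at 0 in the other tumours. Il2, the T-cell growth factor, had 86 of its 87 UMIs in M in 1 cell. Csf2, which encodes GM-CSF, had 101 of 140 UMIs in M in 1 cell, and Tnf had 79 of 101. Ifng had 145 of 185 UMIs in 1 cell of EM1, 54 of 84 in 1 cell of E and 37 of 41 in 1 cell of M. Without those cells Ifng stood at 84.1 CPM in EM1, 52.7 CPM in E and 9.26 CPM in M.

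**Figure D3:**
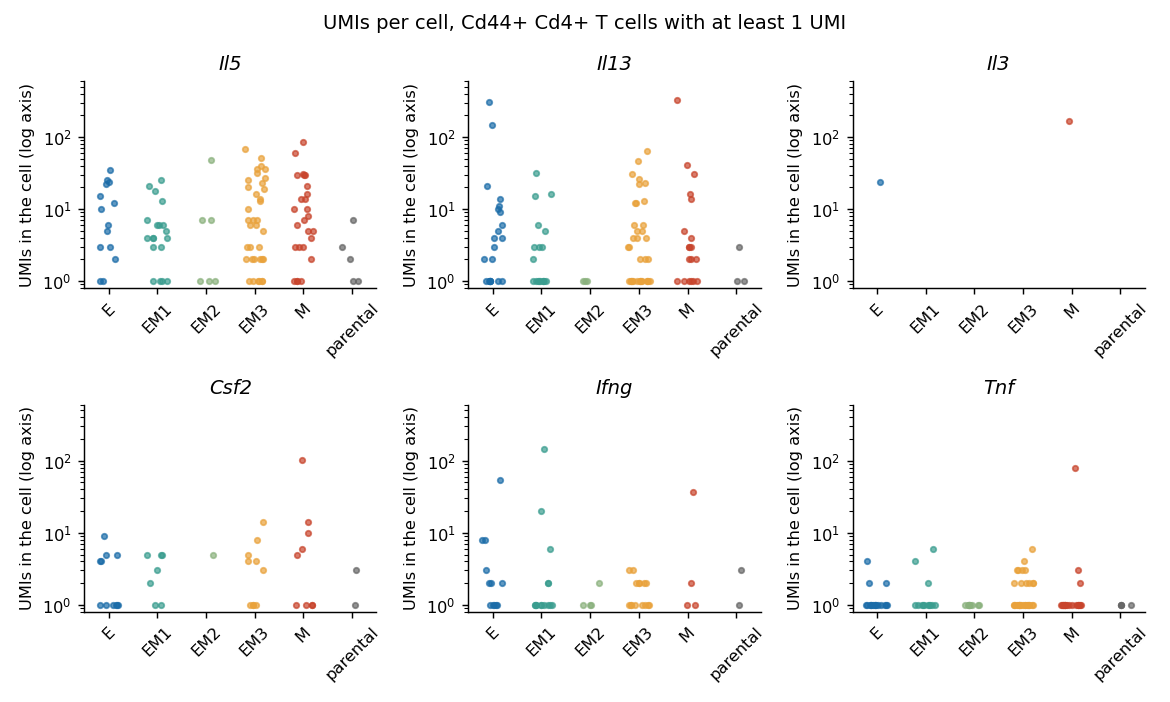
UMIs per cell (y axes, log scale) of 6 cytokine genes in those Cd44+ Cd4+ T cells that hold at least 1 UMI, by tumour (x axes). Each point is 1 cell, spread sideways for view; the highest Il13 points are the M cell with 330 and the E cell with 303 UMIs, and Il3 has 1 cell in M and 1 in E.

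The members held 86.2% of the Il5 UMIs (1273 of 1477) and 76.8% of the Il13 UMIs (1424 of 1853) of the CD45 libraries. By tumour their part of the Il13 UMIs was 76.2, 38.5, 21.4, 87.6, 90.6 and 55.6%. In EM1 the T and myeloid hybrids held 52%, more than the members. The EM2 and parental libraries held only 14 and 9 Il13 UMIs in all, too few to rank the cells that carried them. In the parental library they held 9.4% of the Il5 UMIs, and there Foxp3+ Cd4+ T cells stood at 444 CPM for Il5, above the 108 CPM of the members. Genes of the remaining helper types were low: Il17a reached at most 49.2 CPM, Il21 8.41 CPM and the follicular receptor Cxcr5 41.0 CPM in any tumour. In the Total libraries a gate took cells of classes whose names begin with T or NK. They had Cd4 and Cd44 UMIs and no Foxp3, Cd8a, Cd8b1 or Ncr1 UMIs. What part of these gated cells are T cells was not tested. They gave another order for Il13, at 672, 7.94, 28.1, 1160, 8.72 and 0 CPM. The gate on UMIs in the CD45 libraries, which is on annotated T cells and has no condition on Ncr1, gave 1410, 254, 12.3, 331, 1970 and 0 CPM. The gated cells of the Total libraries held the epithelial keratin gene Krt18 at 254 to 778 CPM, against at most 2.51 CPM in the CD45 libraries. Their Cd3e stood at 1150, 516, 315, 683, 354 and 84.3 CPM, against 1010 to 1310 CPM in the CD45 libraries. Ratios of T-cell genes between the Total libraries also carry this difference.

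The regulatory gene Foxp3 was present in the members at a level that differed between tumours, at 183, 284, 318, 63.7, 18.5 and 215 CPM, against 2160 ± 134 CPM (SD, n = 6 tumours) in Foxp3+ Cd4+ T cells. A Foxp3 UMI was found in 37 (10.8%), 52 (12.1%), 41 (13.2%), 21 (4.96%), 5 (1.79%) and 11 (9.91%) of the members. EM3 and M were lowest by both measures. For some of the genes below, ratios are given also without the 167 cells that held a Foxp3 UMI. Leaving these cells out moved none of the 8 counts of called genes between tumours by over 1.5 times.

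Genes of recirculating T cells were present beside those of tissue residency. Ccr7, the receptor that leads T cells to lymph nodes, stood at 1160, 2020, 2250, 1050, 1910 and 1930 CPM, with E and EM3 lowest. Klf2, a factor that keeps T cells in circulation, stood at 1160, 1470, 1330, 1770, 2430 and 2110 CPM and was the higher gene of 11 naive and recirculating genes between M and E, although in the gated cells of the Total libraries it stood at 812 CPM in M and 1060 CPM in E. The residency receptor Cxcr6 was seen in 30.2, 30, 32.8, 35.9, 34.3 and 12.7% of the members after thinning. None of 14 identity genes, from the CD3 chains to Thy1, was called between any of the 4 pairs of tumours below by the rule for calls above.

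Clone M was compared with Clone E, the ends of the named series. The members of M were higher in the activation receptors Tnfrsf9, Il2ra and Cd69 and lower in 3 of 6 type I and 4 of 13 type II interferon response genes. Of 5130 genes compared, 118 (2.30%) were higher and 135 (2.63%) lower in M. Of 14 costimulation and activation genes compared, 3 were higher and 1 lower. The median log2 ratio of this list was -0.34 against 0.01 over all genes compared, so the list as a whole was not higher in M. Tnfrsf9, the costimulatory receptor 4-1BB, stood at 1000, 1540, 1130, 1650, 2580 and 1310 CPM, and M lay above all other tumours. Il2ra stood at 445, 523, 340, 515, 1030 and 461 CPM, with M again above the rest. The third was Cd69, an early activation receptor, at 289 CPM in M and 139 CPM in E. In the gated cells of the Total libraries Il2ra stood at 219 CPM in M and 243 CPM in E and Tnfrsf9 at 980 against 838 CPM. The higher Il2ra of M was thus not found there, in cells whose Cd3e stood at 354 CPM in M and 1150 CPM in E. Cd27, a costimulatory receptor that is lost with differentiation, was lower at 57.9 CPM in M and 211 CPM in E.

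Of 13 helper ligands and cytokines compared between M and E, 4 were higher (Tnf, Il2, Il3 and Csf2) and 2 lower (Il10 and Areg). Tnf stood at 234 against 38.7 CPM and Csf2 at 324 against 58.0 CPM, and without the highest cell of each tumour Tnf stood at 50.9 against 31.6 CPM and Csf2 at 90.3 against 42.2 CPM, log2 ratios of 0.57 and 0.97 that no longer pass the rule. Il2 was at 201 CPM in M, in 2 cells, and at 0 in E; without the highest cell M stood at 2.31 CPM, under the 5.27 CPM that 3 counts stand for in E. Il10, the suppressive cytokine, stood at 23.1 against 109 CPM, in 3 and 9 cells, and at 4.63 against 58.0 CPM without the highest cells; with the gate on UMIs its log2 ratio was 0.01. Areg stood at 81.0 against 193 CPM and at 55.6 against 79.1 CPM without the highest cells, a difference that no longer passes the rule. Of 9 type 2 genes 1 was higher (Il5, at 69.8 against 131 CPM in the gated cells of the Total libraries) and 2 were lower (Il4ra and Maf), and of 10 type 1 genes 0 were higher and 1 was lower.

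Other genes named for the difference between M and E lay in varying numbers of cells. In M, 27 of the 36 UMIs of Egr3 and 25 of the 29 UMIs of Hbegf lay in 1 cell. Egln3, an oxygen-sensing prolyl hydroxylase whose RNA rises in low oxygen, stood at 70.3, 84.1, 75.6, 136, 442 and 169 CPM, in 59 cells of M and 33 of E. It was 1 of 2 higher genes among 9 hypoxia and glycolysis genes, the other being the glucose transporter Slc2a3. Klrc1, an inhibitory receptor of natural killer and CD8 T cells, stood at 132 against 14.1 CPM. The transcription factor Hes1, a Notch target, stood at 81.0 against 8.79 CPM in 15 and 3 cells. Creb3l1 stood at 55.6 CPM in 14 cells of M and was at 0 in E.

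Among genes lower in M than in E, Foxp3 led (18.5 against 183 CPM), followed by the stress chaperone Hspa1b (16.2 against 139 CPM). The immediate early and stress list as a whole went the other way, with a median log2 ratio of 0.47. Of its 14 genes 4 were higher in M (Fosb, Jun, Egr1 and Atf3) and 2 lower (Hspa1a and Hspa1b). Such genes also respond to the handling of cells, whose part was not tested. Il6st, the shared chain of the interleukin-6 receptors, stood at 30.1 against 181 CPM, in 12 and 67 cells. Sh2d1a, the adaptor SAP of the SLAM receptors, stood at 41.7 against 172 CPM. Of 6 type I interferon response genes 3 were lower (Isg15, Rtp4 and Ifi27l2a), with a median log2 ratio of -1.10 against 0.01 over all genes compared. Ifi27l2a, an interferon-induced gene, stood at 1020, 920, 876, 416, 282 and 723 CPM, so that M and EM3 were below the other tumours. Of 13 interferon gamma response genes 4 were lower (Gbp3, Gbp4, Gbp5 and Igtp), with a median of -0.82. Igtp, a GTPase against intracellular microbes, stood at 278, 364, 217, 173, 97.2 and 161 CPM. Gbp4, a guanylate-binding protein, stood at 151, 151, 120, 85.9, 48.6 and 108 CPM, lowest in M.

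Of 10 inhibitory receptor and exhaustion genes, 4 were lower in M than in E (Ctla4, Havcr2, Cd200 and Ikzf2), with a median of -0.54. Ctla4 stood at 1170, 1000, 1370, 999, 574 and 746 CPM. Pdcd1 was not among them, at 1250, 962, 1330, 1440, 1300 and 438 CPM, and the parental tumour stood lowest for it. Without the members that held a Foxp3 UMI, the log2 ratio of M over E was -0.94 for Ctla4 (-1.01 with them), -0.55 for Ikzf2 (-1.15 with them), -1.73 for Ifi27l2a, -1.55 for Gbp4 and -1.49 for Igtp. The macrophage and monocyte list moved with the same contrast: 3 of 10 genes were lower in M (Arg1, Apoe and Cd14), with a median of -0.77, and its part in the lower genes was not tested. When only genes at least as high in the members as over cells that are not T cells were kept, 69 genes were lower in M. In the gated cells of the Total libraries the counts were 821 higher and 647 lower, and the ratios of Il2, Il3, Klrc1, Tnf, Csf2, Hspa1b and Il6st turned, as did the differences in Il2ra, Il5 and Klf2 given above. Among genes that did not turn were Egln3 (1.53) and Ifi27l2a (-2.73). In those gated cells Cd3e stood at 354 CPM in M and 1150 CPM in E, and Trac at 454 and 1490 CPM. Ratios of T-cell genes in the Total libraries therefore also carry a lower content of T-cell RNA in M.

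**Figure D4:**
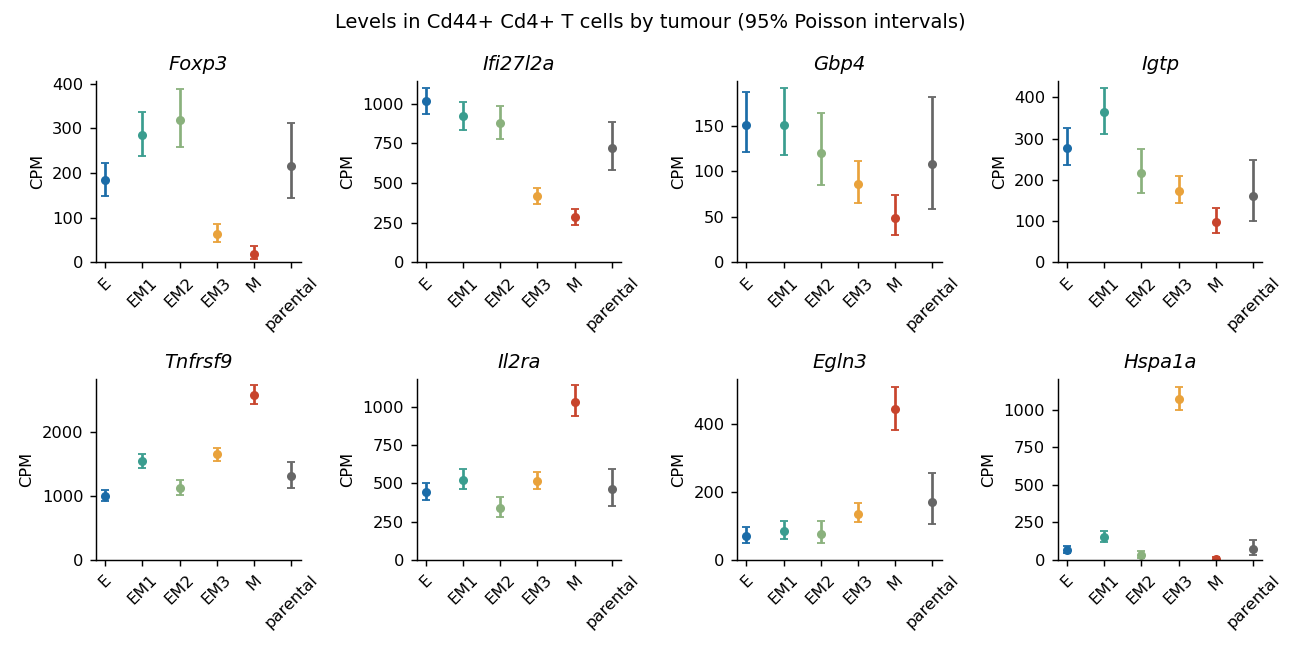
Levels of 8 genes (y axes, CPM, each from 0) in the Cd44+ Cd4+ T cells of the 6 tumours (x axes). Points are summed levels and bars exact Poisson intervals at 95%; Foxp3, Ifi27l2a, Gbp4 and Igtp are lowest in M, Tnfrsf9, Il2ra and Egln3 are highest in M, and Hspa1a is highest in EM3 at 1070 CPM.

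Clone EM3 was compared with Clone E, whose CD45 library shares droplet barcodes with it; this comparison shares the E tumour with the one before. The stress chaperones led it. Of 4926 genes compared, 41 (0.832%) were higher and 29 (0.589%) lower in EM3. These counts depended on the settings: a minimum of 20 CPM gave 65 higher and 45 lower genes, and no minimum gave 75 and 47. With only genes at least as high as over cells that are not T cells 26 were higher, and with the gate on UMIs 58 were lower. Hspa1a stood at 66.8, 153, 31.5, 1070, 4.63 and 69.2 CPM, with 62 cells of EM3 and 13 of E, and Hspa1b stood at 1100 CPM in EM3 and 139 CPM in E. With Fos they were the 3 higher genes of 13 immediate early and stress genes, whose median log2 ratio was 0.83 against -0.03 over all genes. Such genes also respond to the handling of cells, and the part of digestion was not tested. Over cells that are not T cells both chaperones were higher in the EM3 library as well, with Hspa1a at 398 against 118 CPM and Hspa1b at 477 against 137 CPM. Klrc1 stood at 118 against 14.1 CPM in 27 and 4 cells, and Slc17a6, a vesicular glutamate transporter, at 148 against 26.4 CPM in 30 and 8 cells. Plk2, a kinase of the polo family, stood at 178 against 58.0 CPM.

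Of 8 type 2 genes, Il5 was higher in EM3 than in E (734 against 288 CPM, a log2 ratio of 1.32) and Il13 was lower (459 against 967 CPM, -1.06). Without each tumour's highest cell Il13 stood at 363 against 434 CPM, and in the gated cells of the Total libraries at 1160 against 672 CPM, which turns the direction. Il10 stood at 11.8 against 109 CPM and Ifng at 35.5 against 148 CPM, the latter at 31.1 against 52.7 CPM without the highest cell. Of 6 type I interferon response genes 2 were lower (Rtp4 and Ifi27l2a), with a median of -0.91, while none of 13 interferon gamma response genes was called. Foxp3 stood at 63.7 against 183 CPM, and without the members that held a Foxp3 UMI the log2 ratio was -1.21 for Ifi27l2a and -2.88 for Il10. Markers of other cells moved with EM3: Lyz2 was higher among 10 macrophage and monocyte genes (median 0.62) and Retnlg among 6 granulocyte genes, and their part in the result was not tested. In the gated cells of the Total libraries 424 genes were higher and 219 lower, and the ratios of Klrc1, Il10 and Ifng were among those that turned. With the gate in the CD45 libraries Il5 was lower in EM3, at a log2 ratio of -0.84.

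Clone EM1 was compared with Clone EM2, the other pair that shares droplet barcodes. Of 5121 genes compared, 36 (0.703%) were higher and 27 (0.527%) lower in EM1, and 16 were lower among genes at least as high as over cells that are not T cells. Cytokine genes led the higher side. Ifng stood at 389 against 15.8 CPM and at 84.1 against 9.46 CPM without the highest cells, in 15 cells of EM1 and 4 of EM2. Il13 stood at 198 against 9.46 CPM (18 and 3 cells), Areg at 107 against 18.9 CPM (16 and 5 cells) and Ccl1 at 168 against 53.6 CPM (20 and 8 cells). The chemokine Ccl3 stood at 300 against 44.1 CPM, but 130 of its 143 UMIs in EM1 lay in 1 cell and without the highest cells it stood at 27.3 against 41.0 CPM. Among lower genes Plk2 stood at 50.4 against 268 CPM and Penk at 530 against 1510 CPM. Itgae, the CD103 chain that binds epithelial cadherin, stood at 18.9 against 75.6 CPM and Itgb8, an integrin chain that activates latent TGF-beta, at 16.8 against 81.9 CPM. Itgae was the lower gene of 16 homing and residency genes, of which none was higher. The mitochondrial genes mt-Nd3 (50.4 against 161 CPM) and mt-Nd6 (219 against 536 CPM) were lower as well, and the median mitochondrial percent per cell was 0.4 in EM1 and 0.826 in EM2. In the gated cells of the Total libraries 170 genes were higher and 128 lower, and the ratios of Ifng, Il13, Ccl3, Areg and Ccl1 turned.

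The parental tumour was compared with Clone M, which is shared with the first comparison. Of 5240 genes compared, 107 (2.04%) were higher and 96 (1.83%) lower in the parental tumour, over its 111 cells. When only genes at least as high in the members as over cells that are not T cells were kept, 57 were higher. Type 2 cytokines and PD-1 were lower. Of 9 type 2 genes 4 were lower (Il4, Il5, Il13 and Ccr8) and 1 higher (Il4ra), with a median of -0.59. In M 24 of the 42 Il4 UMIs lay in 1 cell. Without the highest cells Il4 stood at 7.69 CPM in the parental tumour, which had 2 Il4 UMIs in all, and at 41.7 CPM in M. Both levels are under 50 CPM, so that the call of Il4 no longer passes the rule. Il5 stood at 108 against 928 CPM (5 and 26 cells), and Il13 at 38.4 against 1070 CPM (3 and 19 cells). Without the highest cells Il5 stood at 53.8 against 732 CPM and Il13 at 15.4 against 306 CPM. Calca was at 0 against 144 CPM, which came from 17 cells of M. Cxcr6 stood at 707, 525, 656, 829, 567 and 223 CPM, and Pdcd1 and Cxcr6 were both lowest in the parental tumour. After thinning to 1000 UMIs Pdcd1 was seen in 37.1, 35.0, 47.0, 49.6, 46.0 and 14.3% of members and in 0 to 3.12% of granulocytes; without thinning the shares were 39.2, 32.4, 39.4, 51.5, 44.8 and 16.2%.

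On the higher side of the parental tumour stood Foxp3 (215 against 18.5 CPM), Il6st (154 against 30.1 CPM) and Sh2d1a (185 against 41.7 CPM). Of 5 type I interferon response genes 2 were higher (Ifi27l2a and Bst2), with a median of 1.18 against 0.01 over all genes. Without the members that held a Foxp3 UMI the log2 ratio of Ifi27l2a was 1.35. Cxcl10, an interferon-induced chemokine, stood at 84.6 CPM on 3 cells and was at 0 in M. Of 10 macrophage and monocyte genes 4 were higher in the parental tumour (Lyz2, C1qa, Arg1 and Apoe), with a median of 0.99, and their part in the result was not tested. In the gated cells of the Total libraries 165 genes were higher and 335 lower, and the ratios of Il2 and Sh2d1a were among those that turned.

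Across all 6 tumours, 2810 genes reached at least 100 CPM in the highest tumour and at least their level over cells that are not T cells there. Among the 12 with the widest log2 range were Hspa1a (6.21), Il13 (5.79), Hspa1b (5.41), Il3 (5.29), Il2 (4.40), Ifng (3.95), Calca (3.94), Ccl1 (3.79), Csf2 (3.70), Foxp3 (3.53) and Hs3st1 (3.45). Of these, 6 are cytokines or a chemokine (Il13, Il3, Il2, Ifng, Ccl1 and Csf2), and single cells named above set several of these ranges. Without the highest cell Il2 in M fell from 201 to 2.31 CPM, Csf2 in M from 324 to 90.3 CPM, Ifng in EM1 from 389 to 84.1 CPM and Il13 in M from 1070 to 306 CPM, while Il3 was found in 2 cells in all.

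The members were then set beside 4 other T-cell subtypes of the same libraries. Further annotated T subtypes, such as Mki67+ Cd8/Cd4 T and Trdc+ DN T, were not compared. The authors drew all subtypes from the same expression values, so the differences are a description. A gene is called where the log2 ratio passed 1 in the same direction in all 6 tumours. Against Cd44- Cd4+ T cells, 136 of 5215 genes (2.61%) were higher and 34 (0.652%) lower. Clone M gave 41 Cd44- Cd4+ T cells, and without this tumour 60 genes were lower. Cd4 was among the higher genes and Cd8b1 among the lower, so CD8 T cells in the other subtype may add to these differences, which was not tested. Of 8 type 2 genes 6 were higher (Gata3, Il5, Il1rl1, Ccr4, Ccr8 and Maf) and Il4ra was lower, with a median of 3.97 against -0.09 over all genes. Il1rl1 stood at 525 ± 185 against 6.40 ± 7.86 CPM and Il5 at 424 ± 328 against 0.312 ± 0.764 CPM (SD, n = 6 tumours). Bhlhe40, a transcription factor of cytokine-producing T cells, stood at 2500 ± 689 against 272 ± 359 CPM. Of 16 homing and residency genes 6 were higher (Cxcr6, Rgs1, Rgs2, S100a4, S100a6 and Anxa2). Of 11 naive and recirculating genes 2 were lower, Lef1 among them, and of 9 inhibitory receptor genes 5 were higher (Pdcd1, Lag3, Cd200, Nt5e and Ikzf2). Scaling by TMM factors moved all ratios of this comparison by -0.01 to 0.24 on the log2 scale.

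Against Foxp3+ Cd4+ T cells, 58 of 4989 genes (1.16%) were higher and 77 (1.54%) lower. Helper ligands were higher: Tnfsf8 by a median log2 ratio of 3.73, Cd40lg by 3.15 and Tnfsf11 by 3.01, 3 of the 4 higher among 11 helper ligands and cytokines, Csf2 being the other. Tcf7, a factor of self-renewing T cells, stood at 366 ± 81.4 against 36.1 ± 14.8 CPM, and Ramp3, a partner of the calcitonin-family receptors, at 3390 ± 524 against 467 ± 72.8 CPM (SD, n = 6 tumours). Of 8 type 2 genes Il1rl1 and Maf were lower in the members and none was higher. Klrg1, a receptor of differentiated effector cells, stood at 17.7 ± 7.63 against 832 ± 206 CPM, and granzyme B (Gzmb) at 38.8 ± 36.5 against 732 ± 84.6 CPM. Of 14 costimulation and activation genes 3 were lower (Tnfrsf9, Il2ra and Batf).

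Against Gzmb+ Cd8+ T cells, 87 of 5245 genes (1.66%) were higher and 56 (1.07%) lower, on 8 Gzmb+ Cd8+ cells in the parental tumour, where TMM scaling moved the ratios by 0.61. Of 11 cytotoxic genes 7 were lower (Gzma, Gzmb, Prf1, Nkg7, Fasl, Ctsw and Klrk1), with a median of -3.22 against -0.05 over all genes. Nkg7, a granule protein, stood at 145 ± 88.5 against 2320 ± 671 CPM (SD, n = 6 tumours). Il5, at 424 ± 328 CPM in the members, was at 0 in the Gzmb+ Cd8+ and the Lef1+ Cd8+ cells of all 6 tumours. Against Lef1+ Cd8+ T cells, 54 of 5177 genes (1.04%) were higher and 43 (0.831%) lower; with TMM scaling the split was 71 to 37. Of 8 type 2 genes 5 were higher (Gata3, Il5, Il1rl1, Ccr4 and Ccr8), and of 9 cytotoxic genes 5 were lower (Gzma, Gzmb, Nkg7, Ctsw and Klrk1). Ccl5, a chemokine of effector cells, stood at 283 ± 73.5 against 4680 ± 1200 CPM.

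**Figure D5:**
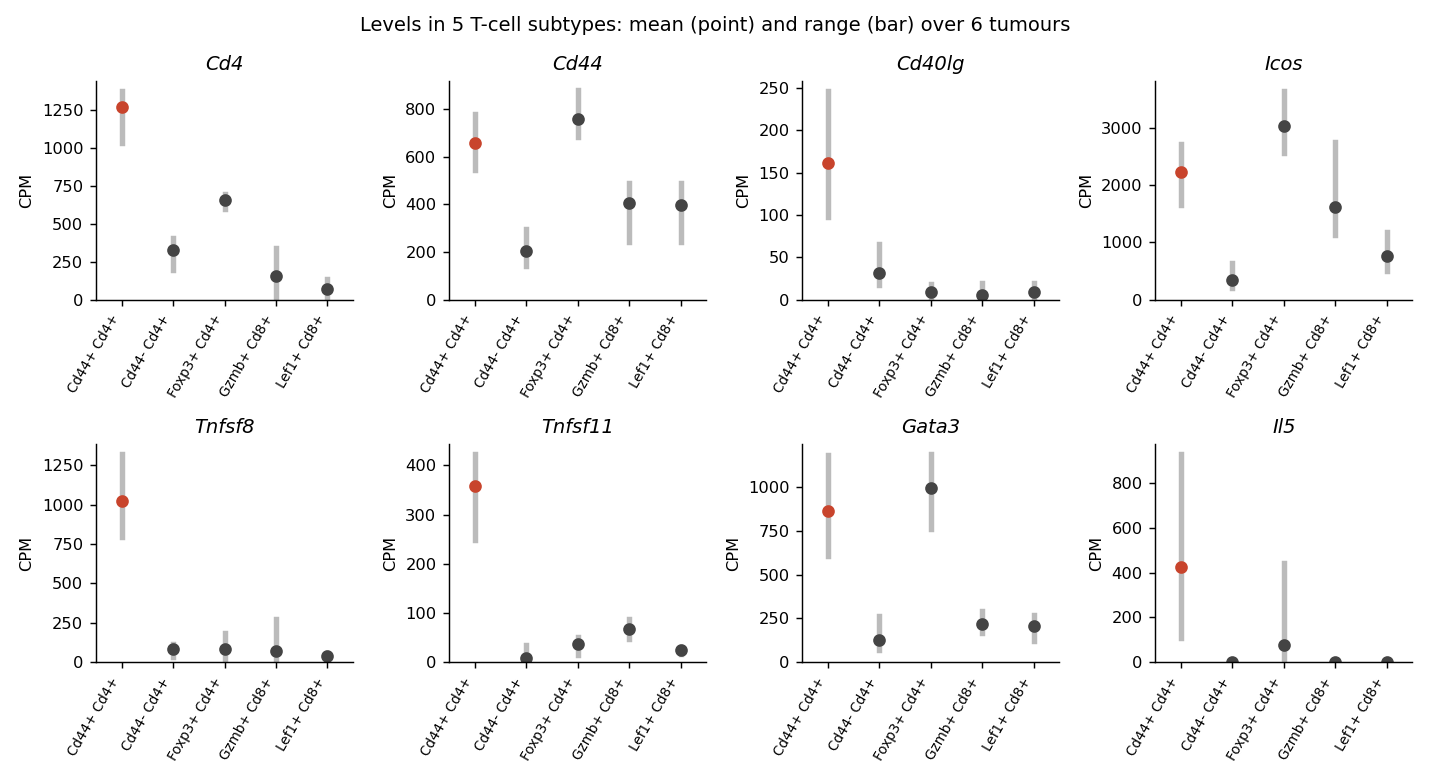
Levels of 8 genes (y axes, CPM, each from 0) in 5 of the annotated T-cell subtypes (x axes). Points are means and grey bars the range over the 6 tumours. Among the 5 subtypes shown, the means of Tnfsf8, Tnfsf11, Cd40lg and Il5 are highest in Cd44+ Cd4+ T cells (red), while that of Icos is highest in Foxp3+ Cd4+ T cells.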

How the data were processed

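Deposited were raw UMI counts of genes in cells, with a second table of the authors' class and subtype for each cell, per the file headers. The build mm10 and Cell Ranger are named in the submitters' processing notes. The labels' protocols name both a fixed-RNA kit and 3′ reagents and leave the capture chemistry unclear. The authors filtered cells before deposit; their limits and any doublet removal are not given in the sources used here. Doublets were called with Scrublet (scanpy 1.11.5, 2 simulated pairs per cell, 30 components, 2000 variable genes) at 1 score limit of 0.2416 for all libraries, which marked 2962 of 115612 cells (2.56%).

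Counts were summed per tumour and subtype and scaled to CPM with Python 3.11.15, numpy 2.4.6 and scipy 1.17.1; edgeR 4.0.16 in R 4.3.3 gave TMM factors only. Exact Poisson and Clopper-Pearson intervals cover counting error only. Named genes were the 12 highest and 12 lowest log2 ratios of CPM + 10 between 2 tumours with intervals apart, at least 50 CPM, and a level in the higher tumour at least that over cells that are not T cells. Between subtypes they were the 10 at each end. Other genes named belong to the lists, of whose 278 genes 270 were found. The members and lists were chosen with earlier results of these data known. Some genes are not reported here.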

Additional observations from a re-analysis of the deposited data

Results flagged for a closer look

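Cells that the authors class as T and myeloid hybrids are outside the members and the 4 subtypes set beside them. They count among the cells that are not T cells. They numbered 72, 54, 60, 77, 37 and 25 in the CD45 libraries of E, EM1, EM2, EM3, M and the parental tumour. Type 2 cytokine UMIs appeared in them above the 3 UMIs that a count of 0 allows. Il4 had 127 UMIs in EM1, of which 121 lay in 1 cell, or 84.7% of the Il4 UMIs of that library. Il5 had 72 UMIs in the parental tumour, all in 1 cell, or 48.3% of that library, and 6 UMIs in M. Il13 had 88 UMIs in E (75 in 1 cell), 127 in EM1 (103 in 1 cell), 28 in M and 4 in EM3. These were 12.2, 52.0 and 5.49% of the Il13 UMIs of the E, EM1 and M libraries.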

How the results depend on the processing

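Doublets kept, TMM scaling and a pseudocount of 1 CPM changed no direction among 93 named ratios between tumours. The gate on UMIs changed 5 directions and ended 37 other calls, the Total libraries changed 33 and ended 35, and leaving out each gene's highest cell changed 1 and ended 15; the last setting and the one without Foxp3 cells were chosen after the data had been seen. Causes were not tested. The ratios in the Total libraries carry the limit above on what part of those gated cells are T cells. Of 78 shares of members with a UMI, thinning to 500 UMIs per cell in place of 1000 moved 39 and no thinning moved 9. Cd40lg in EM1, for example, went from 14.8 to 7.26%. For the share of T cells, M minus E, the gate gave 5.64 points; for the share of CD45 cells it gave -0.287 and the whole without granulocytes gave 3.31. Between M and E the genes at least as high as in cells that are not T cells gave 69 lower, and the Total libraries 821 higher and 647 lower. Between EM3 and E a minimum of 20 CPM gave 65 and 45, no minimum 75 and 47, the level condition 26 higher, the gate 58 lower and the Total libraries 424 and 219. Between EM1 and EM2 the level condition gave 16 lower and the Total libraries 170 and 128. Between parental and M they gave 57 higher, and 165 and 335. Against Cd44- Cd4+ T cells, leaving out each tumour gave 37 to 60 lower genes, with 60 without Clone M.

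Of the 93 named log2 ratios, those that turned in the Total libraries were as follows. M over E: Il2 -0.73, Il3 -0.18, Klrc1 -1.31, Tnf -1.14, Csf2 -1.79, Hspa1b 1.14, Il6st 0.04. EM3 over E: Klrc1 -0.34, Akap12 -0.34, Hs3st1 -1.52, Il10 1.07, Pakap.1 0.60, Ifng 1.91, Hmgn1 0.94. EM1 over EM2: Ifng -1.62, Il13 -1.09, Ccl3 -0.94, Areg -1.01, Eml2 -0.88, Ccl1 -0.80, C1d -0.46, Srek1 -0.19, Wdr46 -0.27, Tbc1d4 1.30, mt-Nd3 0.05, Ntan1 0.07. Parental over M: Pdzk1ip1 -0.15, Grb7 -0.26, St7 -0.65, Sh2d1a -1.14, Il2 0.34, Hs3st1 0.42, Pdcd11 0.79. Under the gate they were Il10 0.01 (M over E), Akap12 -0.07 and Il5 -0.84 (EM3 over E), Zfp180 -0.28 (EM1 over EM2) and Nod1 -0.59 (parental over M). Without the highest cell it was Ccl3 -0.47 (EM1 over EM2).

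The parental tumour's 111 members limit its levels most: 3 counts there stand for 23.1 CPM. No paired analysis was possible because each group has 1 tumour.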
